A study of Mus musculus with 2 samples.

Results

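The genes described here are 41 genes of DNA synthesis and mitosis, chosen by symbol and read through every array probe set annotated to exactly 1 of them. The array carried such probe sets for 39 of the 41 genes, 76 probe sets in all, among 12393 genes that the array reads by a single-gene probe set. Cyclin B1 (Ccnb1) and Cdca8 had none and were not analysed here. The members were taken in 3 roles. Nucleotide supply had 5 genes, replication licensing and S phase 13, and G2 and mitosis 23. The rule uses gene names and no measured value, but the members were chosen with earlier results of these data known.

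The RNA came from mouse uterus on day 8 of pregnancy, from the tissue between implantation sites. The females were 4 months old and of the mixed background C57Bl/6J X OLA129. The control sample is labelled by that word alone, so whether it was wild type or heterozygous is not given. The other sample came from Cbs null females, described in the series' design as homozygous deficient, which lack cystathionine beta-synthase, the enzyme that joins homocysteine to serine. Each group was 1 Affymetrix array, and the labels do not say whether an array held RNA of 1 mouse or of several. With 1 array each, the spread between animals is unknown, and differences are described without statistical tests.

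A cell that divides first loads the Mcm2 to Mcm7 helicase onto its replication origins, then copies its DNA with Pcna, the sliding clamp, and the polymerases, and finally condenses and separates the chromosomes under Cdk1 and the mitotic kinases. The building blocks come largely from ribonucleotide reductase, which turns ribonucleotides into deoxyribonucleotides and is made of a large subunit, Rrm1, and a small subunit, Rrm2. Rrm1 protein is present through the cell cycle, whereas Rrm2 is made in S phase and destroyed after it. In the pregnant mouse uterus, stromal cells divide as they become decidual cells around an implanted embryo, and many of them go on to copy their DNA without dividing.

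Transcription of many such genes is tied to the cell cycle through short promoter elements. The CCAAT box is bound by NF-Y, the E2F element by the E2F factors, and the cell cycle genes homology region, CHR, by the MuvB complexes. The 250 bases before the annotated start are shown for 4 members, because Rrm2 and Rrm1 were lower in every probe set, Cdk1 was lower and carries all 3 elements, and Pcna, also an S phase gene, read the same in both samples. The sequences are from RefSeq, build GRCm38.p6, at chr12:24708004-24708253 on the plus strand for Rrm2, chr7:102441445-102441694 on the plus strand for Rrm1, chr10:69352913-69353162 on the minus strand for Cdk1 and chr2:132253181-132253430 on the minus strand for Pcna. Capitals mark matches to CCAAT, to TTTGAA or TTCGAA (CHR), or to TTTCCCG or TTTCGCG or else TTTGCCG or TTTGGCG (E2F), on either strand, so that a CCAAT box on the other strand appears as ATTGG. None of the marked matches overlaps another.
Rrm2: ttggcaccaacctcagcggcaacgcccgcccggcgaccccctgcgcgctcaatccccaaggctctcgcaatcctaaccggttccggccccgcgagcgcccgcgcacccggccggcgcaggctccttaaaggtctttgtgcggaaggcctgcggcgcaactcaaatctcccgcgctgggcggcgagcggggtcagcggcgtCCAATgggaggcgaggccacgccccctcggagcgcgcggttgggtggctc
Rrm1: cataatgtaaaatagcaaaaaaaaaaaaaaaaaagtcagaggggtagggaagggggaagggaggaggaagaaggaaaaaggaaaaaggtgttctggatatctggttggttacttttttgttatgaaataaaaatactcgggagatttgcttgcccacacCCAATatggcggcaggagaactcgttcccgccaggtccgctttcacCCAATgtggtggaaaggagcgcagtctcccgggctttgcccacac
Cdk1: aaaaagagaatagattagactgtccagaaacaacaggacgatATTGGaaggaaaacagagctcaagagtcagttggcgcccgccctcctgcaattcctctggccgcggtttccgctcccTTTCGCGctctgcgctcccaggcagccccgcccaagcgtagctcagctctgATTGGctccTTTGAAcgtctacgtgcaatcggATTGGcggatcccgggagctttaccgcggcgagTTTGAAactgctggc
Pcna: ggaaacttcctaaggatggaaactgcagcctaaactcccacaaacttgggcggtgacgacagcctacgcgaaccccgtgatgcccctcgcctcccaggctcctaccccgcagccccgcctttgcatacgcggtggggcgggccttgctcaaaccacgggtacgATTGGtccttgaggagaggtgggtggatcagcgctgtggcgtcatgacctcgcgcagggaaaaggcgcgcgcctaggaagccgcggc

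Rrm2 held 1 CCAAT box, whose nearest base to the start lay 46 bases before it. Rrm1 held 2 CCAAT boxes. Cdk1 held 3 CCAAT boxes, 2 CHR matches and 1 E2F match, and Pcna held 1 CCAAT box. Mcm7, which is not shown, also held all 3 elements before 1 of its 2 listed starts. It was higher in Cbs null, with a log2 ratio of 0.36. Of all 32851 promoter sequences in the table, 33.8% held a CCAAT box, 17.1% a CHR match and 5.51% an E2F match in the same window. A match describes letters only, and the absence of a match says nothing on the factor.

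The deposited signals share an overall scale, with medians of 74.55 and 75.6 signal units in control and Cbs null. Weak signals have no reliable order, so all values under 43.2 units (the 40th percentile over the arrays) were raised to that floor, and fold changes against a value under the floor are lower bounds. A gene was represented by its brightest probe set, and counts were made over genes whose mean log2 signal of both arrays lay above the floor, a filter that does not favour either sample. The log2 ratio is always that of Cbs null over control. The technical SD of a log2 ratio, from the disagreement between 2 probe sets that read 1 gene, was 0.18 where both probe sets were at least 4 times the floor and 0.25 otherwise. Each gene was judged by 1 of these 2 values, chosen by the mean log2 signal of its brightest probe set alone. This SD covers measurement within the arrays and not the variation between mice. As a sign of RNA quality, 3' probe sets read 1.31 times (control) and 1.25 times (Cbs null) the 5' ones for Gapdh, and 1.95 and 2.05 times for Actb. Cbs read 79.8 and 42.6 in its brighter probe set, at least 1.85-fold lower, and its other probe set was under the floor in both samples.

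Among the DNA synthesis and mitosis genes, the small subunit of ribonucleotide reductase differed most and most others differed modestly. Rrm2 was about 5-fold lower in the Cbs null sample in all 3 of its probe sets. The large subunit, Rrm1, was about 1.5-fold lower in both of its own. Of the mitotic genes, Cdca3, Cdk1, Ccna2 and Ube2c were 1.54-fold to at least 1.81-fold lower. The replication licensing genes differed by less than 1.5-fold in their brightest probe sets and in both directions, with Mcm7 the member of highest log2 ratio.

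**Figure D1:**
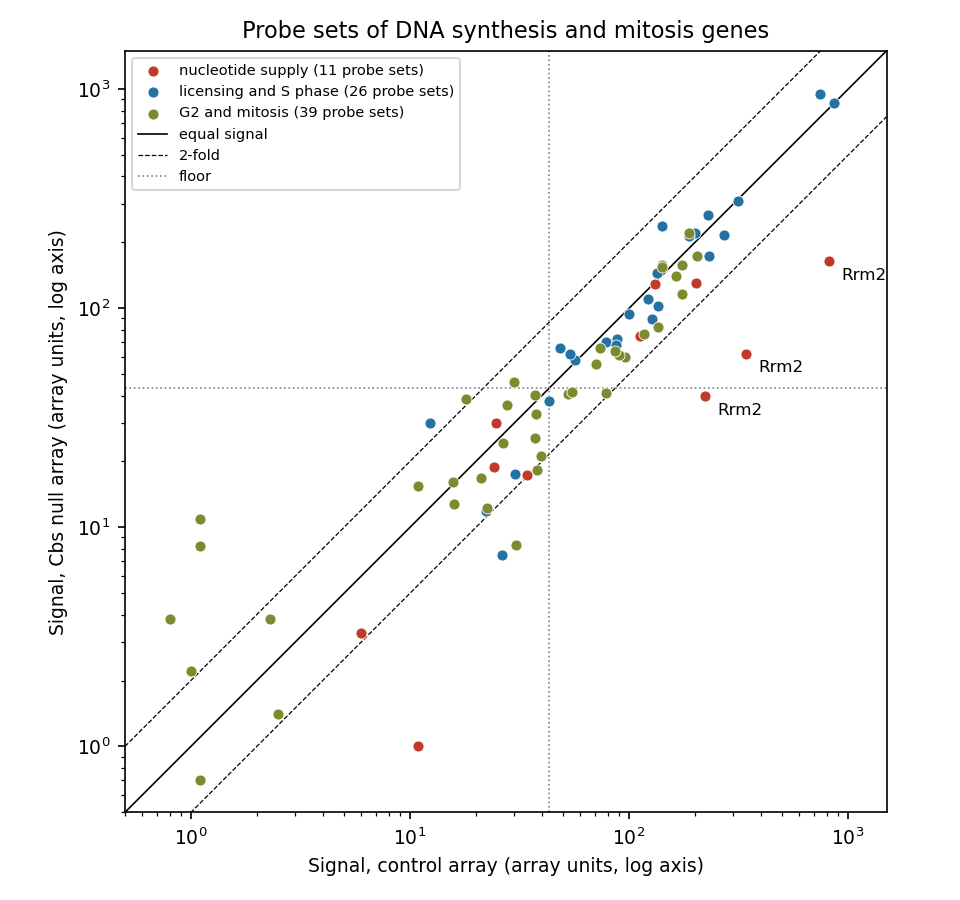
Signal of each of the 76 member probe sets in the control array (horizontal) and the Cbs null array (vertical), in array units on log axes, with colours for the 3 roles. The solid line marks equal signal, the dashed lines 2-fold and the dotted lines the floor of 43.2. The 3 Rrm2 probe sets lie far under the lower 2-fold line, and the other probe sets above the floor on both arrays lie between the 2-fold lines.

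Among the members, 27 passed the filter on mean signal and 12 of the 39 on the array did not. Above the floor on both arrays were 24. Ccnb2, Plk1 and Cdca3 passed with Cbs null signals under the floor, and so could only count as lower. Of the 27, 19 were lower in the Cbs null sample and 8 were higher, whereas 46.2% of all 8170 genes that passed the same filter were lower and 53.6% higher. The median log2 ratio of the 27 was -0.24, and that of all 8170 genes was 0.02. At least 1.5-fold lower were 6 of the 27, beside 3.37% of all genes. No member was 1.5-fold or 2-fold higher by its brightest probe set, beside 3.67% and 0.796% of all genes. Rrm2 was the 1 member at least 2-fold lower, beside 0.661% of all genes. With Rrm2 left out, the median of the other 26 was -0.20. More than 2 technical SD lower were 7 of the 27, beside 6.99% of all genes, and Mcm7 was the 1 member more than 2 technical SD higher, beside 7.48%. Mcm4, among the 7, and Mcm7 were judged by the SD of 0.18, and both lie within 2 SD when 0.25 is used. The remaining 19 members lay within 2 technical SD of 0, so most of the lower members were lower by little.

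In nucleotide supply, 3 of the 5 genes could be compared, and all 3 were lower, with a median log2 ratio of -0.63. Rrm2 read 819.4 (control) and 164 (Cbs null) in its brightest probe set, a log2 ratio of -2.32. Its other probe sets read 342.2 and 62.1, which is 5.51-fold lower, and 221.3 and 39.8, at least 5.12-fold lower. The 3 log2 ratios lay within 0.14 of each other, and Rrm2 was the 9th lowest of the 8170 genes. The brightest of these probe sets carries the _x_at suffix, used where probes may bind other transcripts too, and the other pair, without it, gave ratios as large.

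Rrm1 read 202.1 in control and 130.8 in Cbs null, a log2 ratio of -0.63. Its second probe set read 112 and 74.5, a log2 ratio of -0.59. Both Rrm1 probe sets were thus at least 1.5-fold lower, and among genes with 2 or more probe sets above the floor, 1.21% had every probe set lower by that much. Divided by the technical SD for the brightest probe set, the log2 ratio was -2.48 for Rrm1 (SD 0.25) and -13.2 for Rrm2 (SD 0.18). The SD of 0.25 would give Rrm2 a smaller multiple.

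Dut, the dUTPase that keeps uracil out of DNA, read 132.1 and 129.2 in its brighter probe set a difference smaller than the technical SD. Its dimmer probe set, at 34.4 and 17.4, was under the floor in both samples. Thymidylate synthase (Tyms), which makes dTMP, and thymidine kinase 1 (Tk1), which salvages thymidine, could not be compared. The brightest Tyms probe set read 24.7 and 29.9, and the Tk1 probe set read 24.3 and 18.8, all under the floor.

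Other nucleotide genes were mostly close to 0. Rrm2b, the alternative small subunit used outside S phase and in DNA repair, read 148.7 in control and 165.2 in Cbs null, a log2 ratio of 0.15 and within the technical SD. Deoxycytidine kinase (Dck), a salvage enzyme, read 228.4 and 126.7, 1.80-fold lower in 1 probe set, while its other 2 probe sets were under the floor. Of the 17 companion genes of nucleotide supply above the floor, Rrm2b and Dck included, 7 were lower, 10 were higher and Dck was the 1 at least 1.5-fold apart. Their median log2 ratio was 0.03. Of all genes that passed the filter, 46.2% were lower and 3.37% at least 1.5-fold lower.

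Replication licensing and S phase genes lay on both sides of 0. Of the 11 members above the floor, 6 were lower and 5 higher, with a median log2 ratio of -0.03, and none reached 1.5-fold by its brightest probe set. Without probe sets of the _s_at, _x_at or _a_at kind, the median was -0.30 over 8 members, and a floor at the 20th percentile put 2 members, Ccne1 and Ccne2, at least 1.5-fold lower. The members ranged from -0.42 for Mcm4 to 0.36 for Mcm7.

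The Mcm genes encode the subunits of a single ring-shaped helicase, yet their ratios spread over both sides of 0. Mcm4 read 231 and 172.9 in one probe set and 173.8 and 157.9 in the other, with log2 ratios of -0.42 and -0.14. Mcm6 read 270.7 and 215.2, then 122.6 and 110.2, with log2 ratios of -0.33 and -0.15. Mcm4 and Mcm6 were lower in every probe set, but by less than 1.5-fold.

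Mcm3 read 100 and 94.4 in its brightest probe set, a log2 ratio of -0.08. Mcm5, with 1 probe set, read 56.6 and 58.2. Both differences were smaller than the technical SD. Mcm2 read 199.3 and 221.4 in one probe set and 88.3 and 72.8 in the other, so its direction was not settled. Mcm7 went the other way in all 4 probe sets. They read 741.3 and 948.6, 230.6 and 267.3, 187.9 and 215.1, and 142.1 and 238, with log2 ratios from 0.20 to 0.74. All 4 carry an _s_at, _x_at or _a_at suffix, so Mcm7 had no value when such probe sets were left out. The share of genes with 2 or more probe sets in which every probe set was higher was 29.9%.

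At the replication fork, Pcna read 859.7 in control and 866.4 in Cbs null, a log2 ratio of 0.01. DNA ligase 1 (Lig1), which seals Okazaki fragments, read 135.5 and 102.2, a log2 ratio of -0.41 that lay within 2 technical SD. The flap endonuclease Fen1, which trims those fragments, read 315.4 and 309.4 in its brighter probe set and 54 and 62 in the other. Its log2 ratios were -0.03 and 0.20, so its direction was not settled. The 3 fork genes thus differed by far less than Rrm2.

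The clamp loader subunit Rfc4 read 87.7 and 68.4 in one probe set and 48.2 and 66.1 in the other, with log2 ratios of -0.36 and 0.46. The primase subunit Prim1 read 133.9 and 144.5, then 127 and 89.6, with log2 ratios of 0.11 and -0.50. Both genes had probe sets on opposite sides of 0, and no direction is given for them. The E cyclins, which drive entry into S phase, were under the floor in both samples. Ccne1 read 30.2 and 17.6, and Ccne2 read 26.4 and 7.5.

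**Figure D2:**
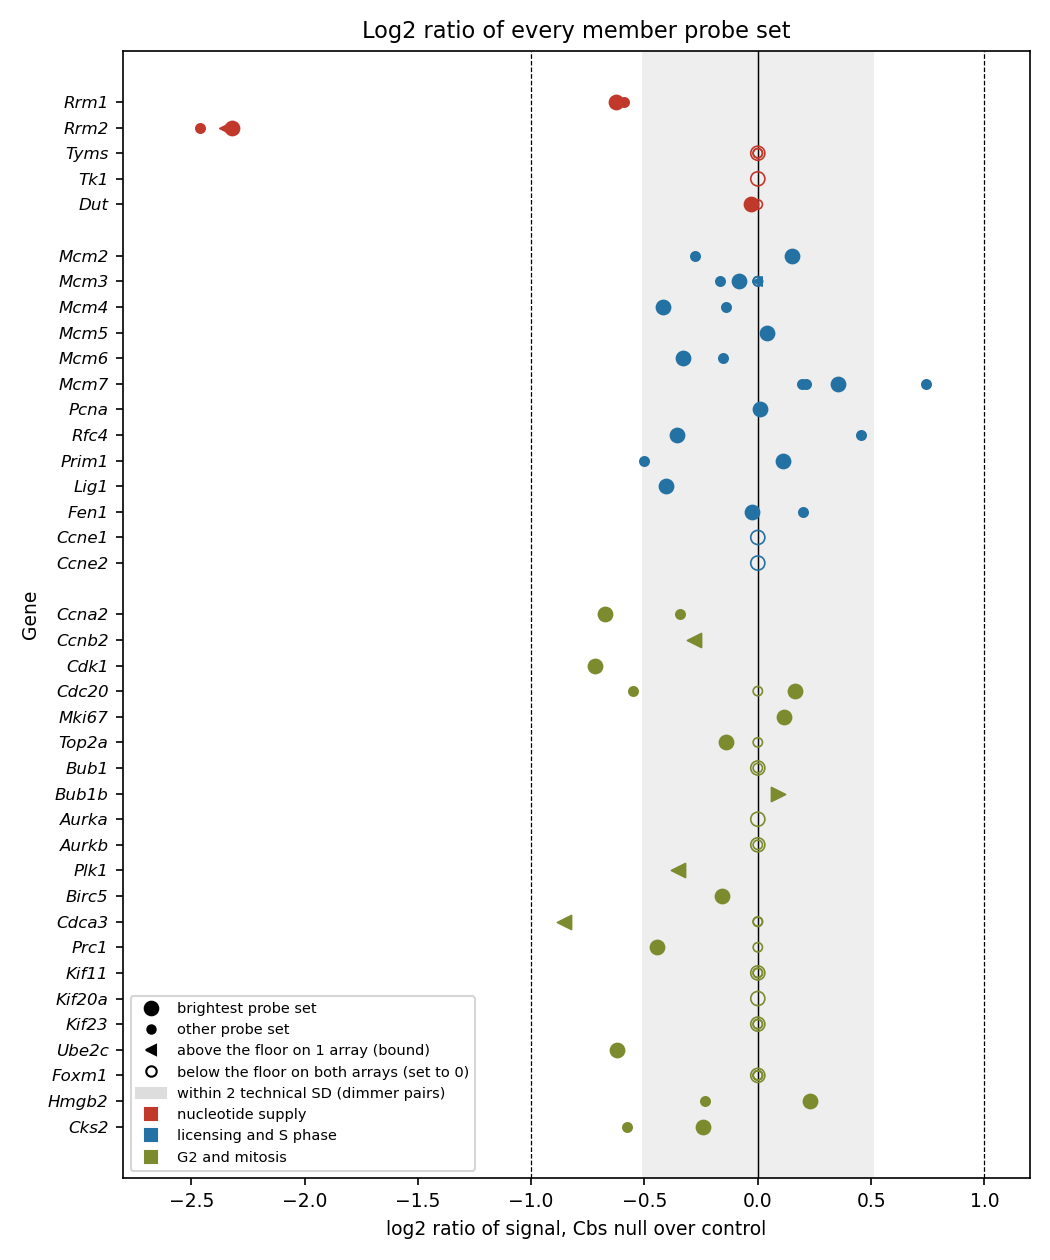
Log2 ratio of signal, Cbs null over control, for every member probe set, by gene and role. Large symbols are the brightest probe set of a gene, triangles are bounds, open circles are probe sets under the floor in both samples, and the grey band spans 2 technical SD (0.25 each) on either side of 0. Rrm2 stands alone beyond the dashed 2-fold line, and Rfc4, Prim1, Cdc20, Mcm2, Fen1 and Hmgb2 have probe sets on both sides of 0.

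G2 and mitosis genes were lower more often than higher. Of the 13 members with mean signal above the floor, 10 were lower and 3 higher, with a median log2 ratio of -0.28. At least 1.5-fold lower were 4, beside 3.37% of all genes, and none was 2-fold apart. Of all genes, 46.2% were lower. Ccnb2, Plk1 and Cdca3 were under the floor in Cbs null, so these 3 could only count as lower. Of the 10 above the floor on both arrays, Cdk1, Ccna2 and Ube2c were at least 1.5-fold lower. The count of 4 was 2 with a pseudocount of 16 in place of the floor. It was also 2 with the probe sets of a gene averaged, where Cdca3 stood at -0.29 and Ccna2 at -0.51. Probe sets under the floor on both arrays entered that average as 0, among them 2 of the 3 for Cdca3. With the floor raised to the 60th percentile, 5 members were above it, none of them 1.5-fold lower, and their median was 0.12, so the group's shift rests on members with weak signals.

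Of the cyclins and Cdk1 with its partners, Cdk1 and Ccna2 were at least 1.5-fold lower, whereas Ccnb2 and Cks2 lay within 2 technical SD of 0 by their brightest probe sets. Cdk1, the mitotic kinase, read 135.8 in control and 82.5 in Cbs null, 1.65-fold lower. Cyclin A2 (Ccna2), its partner in S and G2 phase, read 95.5 and 59.8, a log2 ratio of -0.68, and 70.4 and 55.5 in its second probe set, a log2 ratio of -0.34. Cyclin B2 (Ccnb2) read 52.5 and 40.7, at least 1.22-fold lower, with the Cbs null value under the floor. Cks2, a small subunit of cyclin-dependent kinase complexes, read 204.5 and 172.7 in one probe set and 174.3 and 116.7 in the other, with log2 ratios of -0.24 and -0.58.

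Genes of mitotic exit and protein destruction were mixed. Ube2c, the ubiquitin-conjugating enzyme of the anaphase-promoting complex, read 116.9 and 76.1, 1.54-fold lower. Cdc20, the activator of that complex, read 140.9 and 157.9 in one probe set and 89.9 and 61.3 in another, with log2 ratios of 0.16 and -0.55. The result for Cdc20 thus depended on the probe set. Cdca3, which promotes the degradation of the mitotic inhibitor Wee1, read 78.2 and 41.2, at least 1.81-fold lower, and its other 2 probe sets were under the floor.

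Of the spindle and cytokinesis genes, Prc1, which bundles microtubules at the midzone, read 86.7 and 63.7, a log2 ratio of -0.44. Polo-like kinase 1 (Plk1) read 55.1 and 41.7, at least 1.28-fold lower. Birc5, or survivin, of the chromosomal passenger complex, read 73.6 and 65.9. None of these differences exceeded 2 technical SD.

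The widely used markers of dividing cells Mki67 and Top2a differed little. Mki67, whose protein Ki-67 coats mitotic chromosomes, read 142.1 in control and 154.1 in Cbs null, a log2 ratio of 0.12. Top2a, the topoisomerase that untangles sister chromatids, read 173.9 and 157.8, a log2 ratio of -0.14. Hmgb2, a chromatin protein, read 187.7 and 220.3 in one probe set and 164.3 and 139.9 in the other. Each of these brightest probe sets lay within 2 technical SD of 0.

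The remaining mitotic members were too weak to compare. Bub1, Aurka, Aurkb, Kif11, Kif20a, Kif23 and Foxm1 were under the floor in both samples in every probe set of their own. The spindle checkpoint gene Bub1b read 29.8 in control and 45.9 in Cbs null, just above the floor on that array, at least 1.06-fold higher, and its mean signal did not pass the filter. Together with Tyms, Tk1, Ccne1 and Ccne2, these make the 12 genes that did not pass.

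Probe sets of a gene went the same way for some members only. Of the 14 members with 2 or more probe sets above the floor, 7 were lower in every one, beside 26% of all such genes. These were Rrm1, Rrm2, Mcm3, Mcm4, Mcm6, Ccna2 and Cks2. Mcm7 was higher in every one, and the other 6 had probe sets on both sides of 0, beside 44.1% of all such genes.

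Companion genes of the same processes were taken from lists of other pathway members. Of 72 companions with mean signal above the floor, 39 were lower and 33 higher, with a median log2 ratio of -0.06. The lower ones were 54.2%, beside 46.2% of all genes. At least 1.5-fold lower were 2, or 2.78%, beside 3.37% of all genes. For licensing and S phase the median of 31 companions was -0.06, with 17 lower and none 1.5-fold apart. For G2 and mitosis the median of 24 was -0.11, with 15 lower. Anln, the actin-binding anillin of the cleavage furrow, was the mitotic companion at least 1.5-fold lower, reading 110.9 and 60.5, or 1.83-fold lower.

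**Figure D3:**
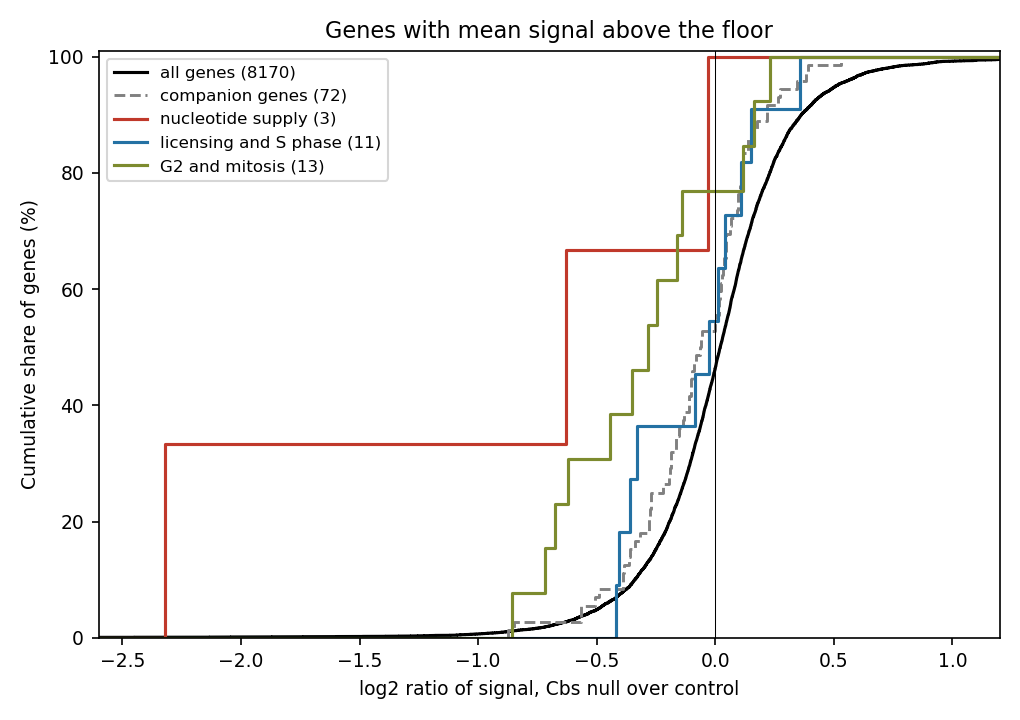
Cumulative share of genes (vertical, percent) by log2 ratio of Cbs null over control (horizontal), for all 8170 genes with mean signal above the floor, 72 companion genes and the members by role. The curves for licensing and S phase and for companions run close to that of all genes, the curve for G2 and mitosis lies to its left with a median of -0.28, and the nucleotide supply curve rests on 3 genes.

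CCAAT boxes were found mainly before the mitotic members, whether or not these were lower. Of the 41 members, 35 had a promoter in the table, 40 sequences in all. A CCAAT box was present in 29 of the 40 sequences (72.5%), a CHR match in 13 (32.5%) and an E2F match in 7 (17.5%). In G2 and mitosis members, 19 of 20 sequences held a CCAAT box and 10 of 20 a CHR match. Among the licensing and S phase members it was 8 of 15 and 3 of 15. In nucleotide supply, Rrm1 and Rrm2 held a CCAAT box, Tyms, Tk1 and Dut held none, and no CHR or E2F match was found in these 5 windows. Mki67 and Top2a, which hardly differed between the samples, held 3 and 6 CCAAT boxes, and Cdk1 and Ube2c, which were lower, held 3 and 6.

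**Figure D4:**
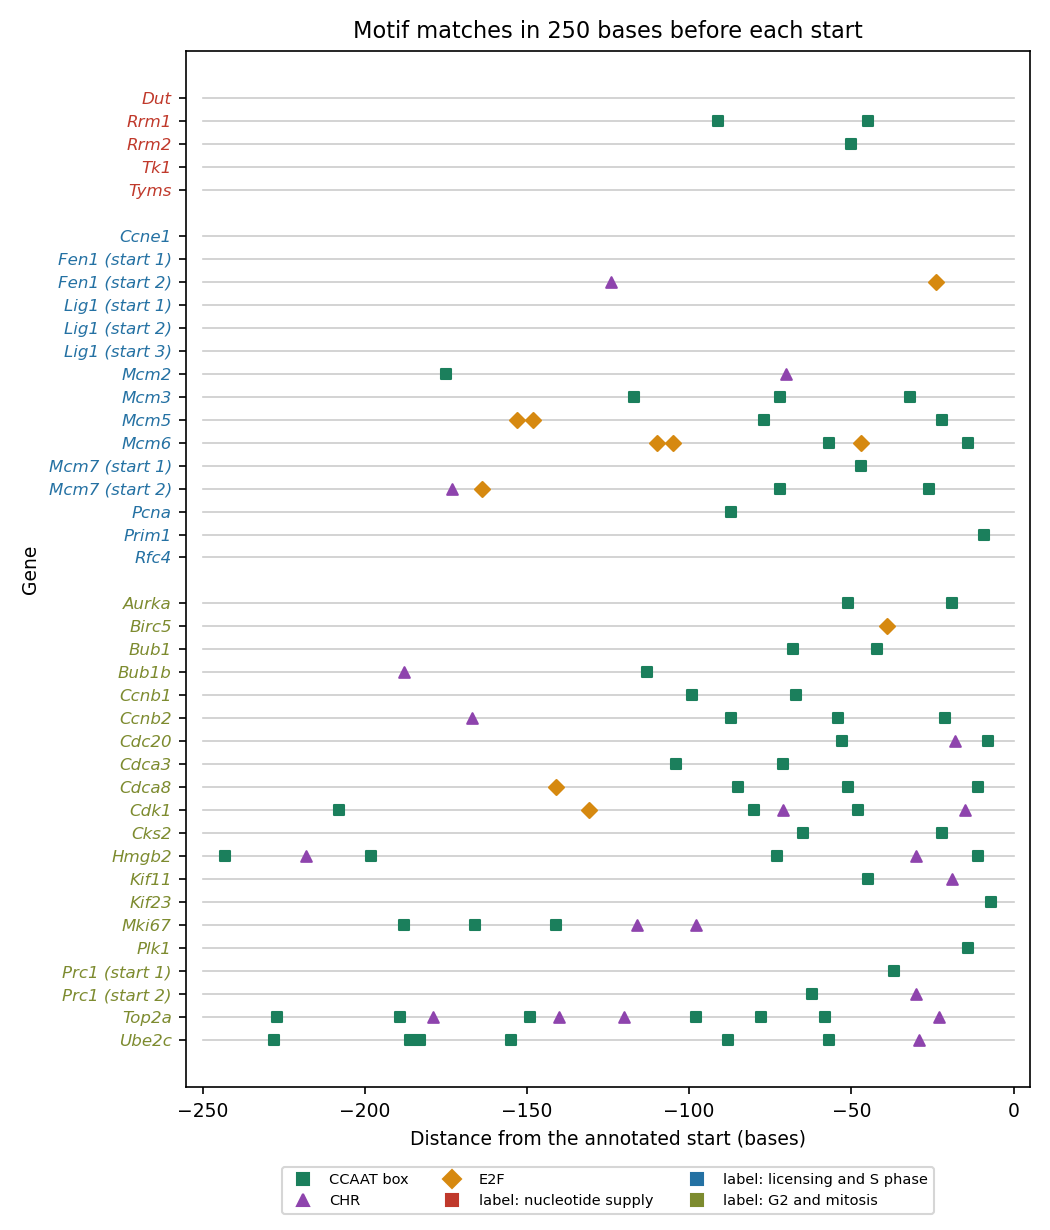
Position of CCAAT box, CHR and E2F matches in the 250 bases before each annotated start of 35 members, in bases from the start, with gene names coloured by role and each listed start of a gene on its own line. Squares (CCAAT boxes) occur in all but 1 of the G2 and mitosis windows, whereas several licensing windows, such as those of Lig1 and Rfc4, hold none.

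The tissue piece holds several cell types, and fewer cells of a type cannot be told apart from less RNA per cell. Of 13 decidual cell genes on the array, 7 were lower and 4 higher, and their signals summed to 8281 (control) and 5889 (Cbs null). Of these, Tdo2 read 685.3 and 27.4, Prl8a2 read 424.4 and 5.8, and Fst read 1011.7 and 256.2, while Hoxa10 read 1187.9 and 1358.8 and Gja1 2993 and 2478.6. Of 11 uterine natural killer cell genes, 9 were lower and none higher, with summed signals of 1736 and 320.1. Above the floor were 2 of the 11 on both arrays and 7 on 1 array only. Those 7 were all granzyme genes under the floor in Cbs null, so they could only count as lower, among them Gzma at 113.2 and 39.7. The 2 above it on both arrays, Klrd1 at 133.3 and 123.3 and Prf1 at 50.6 and 43.5, were less than 1.5-fold lower. The remaining 2 were under it in both samples and counted as neither lower nor higher. They were Il2rb at 38.7 and 40.1 and Ncr1 at 21.8 and 35.4. All 9 smooth muscle genes were lower, with sums of 40894 and 32854, and 4 of them were at least 1.5-fold lower. Acta2, at 9826 and 9373, had the smallest difference of the 9. All 11 uterine epithelium genes were higher, 6 of them at least 1.5-fold, with sums of 6077 and 8763, among them Krt18 at 999.3 and 1626. Of all genes that passed the filter, 46.2% were lower and 53.6% higher, and 3.37% and 3.67% were so by at least 1.5-fold. The part of these cell types in the Rrm2 and mitotic gene differences was not tested.

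Of 9 macrophage and dendritic cell genes, 8 were higher, with sums of 4189 and 5878. Of 8 endothelium genes, 5 were lower, with sums of 2180.5 and 2051. The 7 stroma and steroid receptor genes summed to 16821 and 18592.5, with 3 lower and 3 higher, and the 5 erythroid genes to 1144.5 and 858.7. Most of the erythroid sum was Car2, at 1081 and 758.5. Alas2 went the other way, at 47.5 and 78, and the remaining 3 were under the floor in both samples. All 8 trophoblast and embryo genes were under the floor in both samples, the brightest being Hand1 at 24 and 16.5. No marker on these lists read 0. Smooth muscle and epithelium genes, which define the uterine wall, were each above the floor on at least 1 array.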

How the data were processed

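Total RNA of uterine tissue between implantation sites was labelled as biotinylated cRNA and hybridised to 1 Affymetrix array per group, per the labels' protocols. The authors deposited linear intensity values, 1 for each probe set on each array, and the submitters' processing notes name GCOS 1.4. How signals were summarised or scaled is not given in the sources used here. Trimmed means (2% at each end) were 200.1 in both arrays, so values were used as deposited, and a difference is one relative to all other probe sets.

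Of 22690 probe sets, 20380 carry 1 gene symbol in the platform annotation. Signals were raised to the floor of 43.2, log2 ratios taken, and genes represented by the brightest probe set. Groups came from the genotype labels. With 1 array per group no test was made, and folds of 1.5 and 2 served as size rules. The number of arrays limits the precision. The members, the lists (companion genes, decidual, stroma, epithelium, smooth muscle, natural killer, macrophage, endothelium, erythroid and trophoblast genes) and the rules were chosen with earlier results of these data known. All members are named, together with Rrm2b, up to 4 companions per list that were at least 1.5-fold apart and above the floor on both arrays, and up to 2 markers per cell type list. Tdo2, Prl8a2, Fst, Prf1, Il2rb and Ncr1 were named after their values were seen. Alternatives were median centring, quantile normalization, a lower (20th percentile) and a higher (60th percentile) floor, a pseudocount of 16, other filters, averaged probe sets and leaving out probe sets with _s_at, _x_at or _a_at suffixes. The calculation was tested on simulated data with changes of 2-fold or more in bright genes only. That test did not cover 1.5-fold changes or genes near the floor. Python 3.11.15, numpy 2.4.6 and pandas 2.3.3 were used.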

Additional observations from a re-analysis of the deposited data

How the results depend on the processing

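Rrm2 kept its direction and size under all 9 alternatives, with log2 ratios from -2.46 to -2.21, and Rrm1 ranged from -0.65 to -0.57. The choice of floor mattered most for the mitotic members. When the floor was set at the 60th percentile, the median log2 ratio of G2 and mitosis members turned to 0.12 over 5 genes and that of their companions to 0.030 over 9. The member median was then -0.028 over 15 genes, with 8 lower and 2 at least 1.5-fold lower, and the medians of the nucleotide supply and licensing companions were -0.057 and 0.0035. A floor at the 20th percentile gave a median of -0.19 for all members and for G2 and mitosis, of -0.37 for nucleotide supply and of -0.19 for mitotic companions, 2 members, Rrm2 and Ccne2, were at least 2-fold lower, and 1 member, Foxm1, was at least 2-fold higher. Without a filter, genes under the floor count as 0, and the medians of all members, G2 and mitosis, licensing companions and mitotic companions were 0 and that of nucleotide supply -0.032. With a pseudocount of 16 in place of the floor, 3 members were at least 1.5-fold lower. With probe sets averaged, those under the floor on both arrays counting as 0, the member median was -0.20 and that of nucleotide supply companions -0.070. Without _s_at, _x_at and _a_at probe sets, fewer genes were left and the medians were -0.35 for all members, -1.54 for nucleotide supply (2 genes), -0.30 for licensing, -0.45 for G2 and mitosis, -0.056 for nucleotide supply companions and -0.19 for mitotic companions. Cdc20 was then -0.55 and Mcm2 -0.28, against 0.16 and 0.15 by the brightest probe set. No paired analysis was possible because each group has 1 array. Signals near the floor limit what can be compared, and 12 of 39 members did not pass it.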

Other observations

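Probe sets shared by a member and another gene were left out of the counts. A probe set shared by Tyms and its pseudogene Tyms-ps read 78.1 (control) and 58.3 (Cbs null), a log2 ratio of -0.42, whereas the probe sets of Tyms alone were under the floor. A probe set shared by Foxm1, Pebp1 and Tex52 read 18.1 and 24.4, under the floor in both samples.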
